A study of Mus musculus with 13 samples.

Results

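The 6 genes Dlg2, Dlgap2, Mdga2, Ccser1, Opcml and Kcnq5 are long genes, all but Ccser1 best known from neurons, followed here in ChIP-seq peak lists of the mouse mammary tumor line 4T1 (BALB/cJ). They were chosen by the change of the length covered by H3K27me3 peaks between control (sg-Ctrl) and Nup210 knockout (KO) cells: Dlg2, Dlgap2 and Mdga2 had the largest gains and Ccser1, Opcml and Kcnq5 the largest losses. They are 6 of 18562 gene symbols in the 6 lists and 6 of 183 genes of at least 500 kb in the gene body lists. A gene is in those 4 lists only if it has a peak of H3K27me3 (sg-Ctrl or KO), NUP210 or NPC. The change of H3K27me3 is therefore a description and no test of it was made, while the NUP210, NPC and H3K4me3 lists had no part in the choice.

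H3K27me3 and H3K4me3 were profiled in sg-Ctrl and KO cells, and in sg-Ctrl cells NUP210 and the nuclear pore complex (NPC) as bound by mAb414, which recognises a group of pore proteins. sg-Ctrl cells carried a non-targeting guide RNA. KO cells were 1 clone, N13, carrying a guide to exon 5 of Nup210, and both had received Cas9 for a short time from an adenovirus. There was 1 library per condition, so a difference between KO and sg-Ctrl has no replicate check, the clone and the knockout cannot be told apart, and the intervals given cover counting error only. Peaks had been called with SICER against IgG, and the lists hold those that met a gene body or, for H3K4me3, the 4 kb on either side of a transcription start. A stretch without a peak has no read count in the lists, so absence of a peak is not absence of reads. None of the lists measures Nup210 RNA or protein, so the knockout itself was not checked here.

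The H3K27me3 lists held 9555 peaks in sg-Ctrl and 8874 in KO, with 7719297 and 26811061 reads in peaks. The KO library was 3.16 times as deep relative to IgG, and reads were divided by the ratio of ChIP to IgG library size (scaled reads). NUP210 and NPC peaks were weak, with median folds over IgG of 1.19 and 1.10, and 31.0% and 48.3% of them had a false discovery rate (FDR) above 0.05. By H3K4me3 at the transcription start, 6 of 6 epithelial markers were listed in both conditions, 0 of 6 neuronal and 0 of 4 leukocyte markers were, and of 4 fibroblast markers Col1a1 and Pdgfra were.

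H3K27me3 is written by the polycomb repressive complex 2 and usually marks genes that a cell type does not use, often as broad domains. H3K4me3 marks active or poised transcription starts. NUP210 is a membrane-spanning protein of the nuclear pore, and silent chromatin often lies at the nuclear periphery. Dlg2 encodes the scaffold PSD-93 of the postsynaptic density, and Dlgap2 encodes a scaffold of the SAPAP family that binds such proteins. Mdga2 encodes a cell surface protein that binds neuroligins and limits synapse formation. Opcml encodes a GPI-anchored cell adhesion protein of the IgLON family, and Kcnq5 encodes a voltage-gated potassium channel subunit of the M-current. Ccser1 encodes a coiled-coil serine-rich protein.

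The genes spanned 1358 kb for Dlg2 (chr7:91090786-92449246, plus strand), 752 kb for Dlgap2 (chr8:14095875-14847686, plus) and 756 kb for Mdga2 (chr12:66466059-67222549, minus). Ccser1 spanned 1203 kb (chr6:61180325-62382863, plus), Opcml 1134 kb (chr9:27791269-28925048, plus) and Kcnq5 564 kb (chr1:21398403-21961942, minus). Coordinates are those of the lists, whose gene ends mostly match GRCm38, with 4 of the 6 members within 50 bp. Positions are given below as the distance from the gene start in the direction of transcription. Dlg2 had further listed starts at 972 kb and 1144 kb.

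The 250 bases before the start of these genes ranged from poor to rich in CG dinucleotides, the sequence that polycomb-marked promoters are often rich in. The 3 Dlg2 starts are shown because the one at 972 kb was the only member start under an H3K27me3 peak in both lists. Ccser1 is shown because it was the richest of the members and had no H3K4me3 or H3K27me3 peak over its start. A sg-Ctrl H3K27me3 peak lay 3.3 kb from that start. The sequences are from RefSeq on GRCm38.p6, written 5′ to 3′ on the strand of the gene, with each CG in capitals.
Dlg2, start at 0 kb: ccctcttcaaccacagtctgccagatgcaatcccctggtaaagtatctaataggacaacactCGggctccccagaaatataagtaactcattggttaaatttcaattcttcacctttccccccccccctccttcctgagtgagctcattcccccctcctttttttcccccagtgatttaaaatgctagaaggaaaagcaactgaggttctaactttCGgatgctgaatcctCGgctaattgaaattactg
Dlg2, start at 972 kb: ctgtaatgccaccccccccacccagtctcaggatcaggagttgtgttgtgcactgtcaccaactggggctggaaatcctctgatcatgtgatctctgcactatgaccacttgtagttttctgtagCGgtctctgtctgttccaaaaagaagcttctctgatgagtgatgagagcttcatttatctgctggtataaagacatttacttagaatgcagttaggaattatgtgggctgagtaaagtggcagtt
Dlg2, start at 1144 kb: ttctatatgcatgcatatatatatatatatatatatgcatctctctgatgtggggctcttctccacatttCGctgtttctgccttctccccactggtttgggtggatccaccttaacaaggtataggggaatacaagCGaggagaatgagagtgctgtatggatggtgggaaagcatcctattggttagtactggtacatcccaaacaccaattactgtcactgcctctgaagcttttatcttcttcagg
Ccser1, start at 0 kb: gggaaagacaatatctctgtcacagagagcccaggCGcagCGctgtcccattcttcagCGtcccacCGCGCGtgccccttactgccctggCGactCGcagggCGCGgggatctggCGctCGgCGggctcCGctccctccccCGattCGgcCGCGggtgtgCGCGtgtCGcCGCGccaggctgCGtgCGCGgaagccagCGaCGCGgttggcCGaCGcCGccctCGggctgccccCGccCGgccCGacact

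The Dlg2 windows held 3, 1 and 2 CG, and of 32851 promoter windows of the same length, 71.0%, 92.1% and 81.2% held as many or more. The Ccser1 window held 36, which 2.58% of windows reached. The window of Mdga2 held 15 CG, that of Opcml 8 and that at the listed start of Kcnq5 14, against a median of 6 over all windows. Dlgap2 had no entry. CG was counted once per dinucleotide, which reads the same on both strands.

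The 3 genes with more H3K27me3 were partly covered in sg-Ctrl and mostly covered along a long run in KO. The covered length of Dlg2 was 351 kb in sg-Ctrl and 845 kb in KO, 25.8% and 62.2% of the gene. That of Dlgap2 was 120 kb and 478 kb, 16.0% and 63.6%. That of Mdga2 was 138 kb and 485 kb, 18.2% and 64.1%. The genes thus differed in sg-Ctrl but ended at nearly the same covered share in KO.

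The 3 genes with less H3K27me3 kept almost no peak. Ccser1 had 404 kb in sg-Ctrl and 8 kb in KO, 33.6% and 0.665% of the gene. Opcml had 358 kb and 12 kb, 31.6% and 1.06%. Kcnq5, which was covered over 62.3% of its length in sg-Ctrl, had 351 kb and 43 kb, which left 7.63%. All 6 genes changed at least 2-fold, on the measure by which they were chosen. Of 156 long genes with an H3K27me3 peak in either list, 26.3% had at least 2-fold more length in KO and 10.9% at least 2-fold less, and over 5839 genes of any length the shares were 23.3% and 17.6%.

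**Figure D1:**
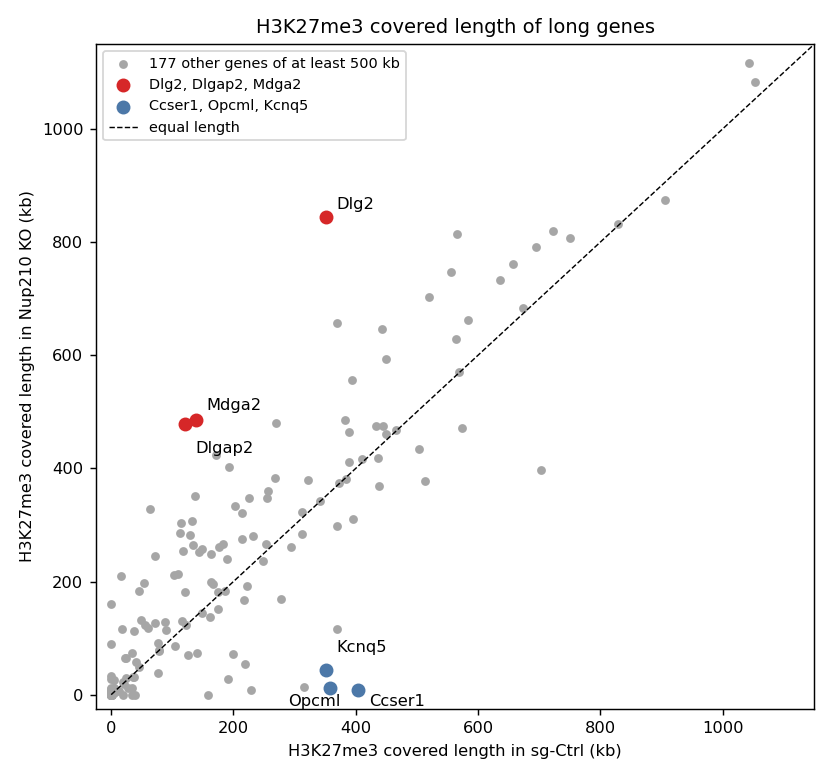
Each point is a gene of at least 500 kb, with its length under H3K27me3 peaks in sg-Ctrl on the horizontal axis and in KO on the vertical axis, both in kb, and the dashed line marks equal length. Dlg2, Dlgap2 and Mdga2 lie above the line with 845, 478 and 485 kb in KO, and Ccser1, Opcml and Kcnq5 lie near the bottom with 8, 12 and 43 kb.

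The cut between the members and the next genes was narrow on the side of loss. Kcnq5 lost 308 kb, while Magi2 went from 703 to 397 kb and Cadm2 from 315 to 14 kb, differences of -306 and -301 kb. On the side of gain, Mdga2 gained 347 kb, and just outside, Lrrc7 went from 123 to 423 kb and Ctnnd2 from 369 to 656 kb. Over the 183 long genes the median difference was 5 kb, with 106 genes higher in KO, 45 lower and 32 equal.

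More peaks was not the common form of gain. Dlg2 had 21 peaks in sg-Ctrl and 19 in KO, and Mdga2 had 12 and 12, but the peaks averaged 16.7 kb in sg-Ctrl against 44.5 kb in KO for Dlg2 and 11.5 against 41.6 kb for Mdga2. Dlgap2 had 10 and 21 peaks, which averaged 12 and 24 kb. The widest peak of each gene was 36, 46 and 23 kb in sg-Ctrl and 116, 105 and 160 kb in KO. The members with loss had the opposite form, in which peaks were missing and those left were narrow. Ccser1 went from 23 peaks to 1, Opcml from 24 to 2 and Kcnq5 from 19 to 5, and their widest peaks went from 74, 55 and 37 kb to 8, 7 and 11 kb.

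Along Dlg2, H3K27me3 in sg-Ctrl lay in separate blocks, whereas in KO it ran from 73 kb to 1011 kb with gaps. Peaks of 116 kb from 73 kb, 79 kb from 321 kb, 80 kb from 658 kb, 99 kb from 757 kb and 115 kb from 863 kb made up most of that run. With each gene split into 10 equal parts from its start, parts 4, 5 and 6 of Dlg2 had a covered share of 0, 6.63% and 2.94% in sg-Ctrl and 91.2%, 82.3% and 89.0% in KO. The far end of the gene went the other way. There, 6 peaks of sg-Ctrl between 1208 and 1354 kb, with folds over IgG of 1.22 to 4.34, met no peak in KO, and part 10 went from 55.9% to 0. In all, 585 kb of Dlg2 was new in 30 separate stretches and 91 kb vanished in 7, and the border lay between the starts at 972 and 1144 kb.

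The inner Dlg2 start at 972 kb lay under a 31 kb peak in sg-Ctrl (fold 2.78) and the 115 kb peak in KO (fold 3.70). Neither the first start nor the one at 1144 kb lay under an H3K27me3 peak in either list. The nearest peak began 11.2 kb after the first start in both lists.

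Dlgap2 was the only member whose first start came to lie under an H3K27me3 peak in KO. The 105 kb KO peak began at -4.87 kb, before the start, reached 100 kb into the gene and had 12189 reads and a fold of 3.49. In sg-Ctrl, 3 peaks of 10, 6 and 46 kb lay in that part of the gene and the nearest began 4.13 kb after the start. Part 1 of Dlgap2 went from 61.3% to 100% covered and part 5 from 6.65% to 85.7%. The far end, where sg-Ctrl had no peak, held a second block in KO, with peaks of 33 kb from 674 kb and 43 kb from 730 kb that ran past the end of the gene. The middle, between 497 and 612 kb, held a single 8 kb peak in KO.

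Mdga2 gained mostly from 317 kb onward. In KO, 1 peak of 160 kb from 317 kb (19191 reads, fold 3.16) and another of 135 kb from 527 kb (16704 reads, fold 2.52) took the place of 8 narrow sg-Ctrl peaks. Parts 6 and 8 were fully covered in KO, against 27.8% and 57.7% in sg-Ctrl. Near the start, coverage stayed low in KO, with 10.7% of part 1, and the nearest peak began 67.5 kb after the start. The Mdga2 peaks of sg-Ctrl were faint, with folds of 0.71 to 1.93 and 3 of 12 below 1, so part of the sg-Ctrl length rested on peaks no stronger than IgG. In KO, 3 of 12 were below 1 as well, among them the peak nearest to the start, with a fold of 0.83.

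The loss in Ccser1 ran through nearly the whole gene. Inside the gene, the sg-Ctrl peaks lay between 122 and 1094 kb, with the widest, 74 kb with 2238 reads and a fold of 2.27, at 618 kb and another of 52 kb at 161 kb. Outside it, a sg-Ctrl peak lay 3.3 kb before the start, while the KO peak nearest to the start began 162 kb after it. What was left in KO was an 8 kb peak at 162 kb with 387 reads (349 to 428) and a fold of 1.39, inside the former 52 kb peak. Of the 23 sg-Ctrl peaks, 8 had an FDR above 0.05 and 3 had a fold below 1, while the 6 with a fold of at least 2 all met no KO peak.

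Opcml had the strongest peaks among the genes with loss. Its sg-Ctrl peaks lay between 43 and 1051 kb, with 36.7% to 52.4% of each of the first 4 parts and 44.1% of part 8 covered, and had a median fold of 2.42 and a highest of 7.73. The 12 kb peak at 67 kb had 582 reads and a fold of 4.98, and the 55 kb peak after it had 1611 reads and a fold of 2.31. Neither had a KO partner. The KO peaks were 5 kb at 437 kb (427 reads, fold 1.90) and 7 kb at 629 kb (452 reads, fold 2.17), both within former peaks.

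Kcnq5 had separate peaks spread along nearly its whole length in sg-Ctrl, with 30.2% to 82.5% of every part under peaks. The 5 KO peaks lay at 29, 109, 128, 344 and 519 kb and had folds of 0.73 to 1.51. The one at 344 kb met no sg-Ctrl peak and was the sole new stretch in the genes with loss. The peak from 28.9 to 33.9 kb had the same ends in both lists and so allowed a direct comparison of reads over 114 IgG reads. It had 264 reads (233 to 298) in sg-Ctrl and 340 (305 to 378) in the deeper KO library, which are 62.4 (55.1 to 70.4) and 25.4 (22.8 to 28.3) scaled reads per kb, with folds of 2.73 and 1.11. The scaled value was lower in KO, on the contrast by which Kcnq5 was chosen, so this is a description of 1 peak. Over all 832 H3K27me3 peaks with the same ends in both lists, KO against sg-Ctrl had a median log2 ratio of -0.18 in scaled reads.

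**Figure D2:**
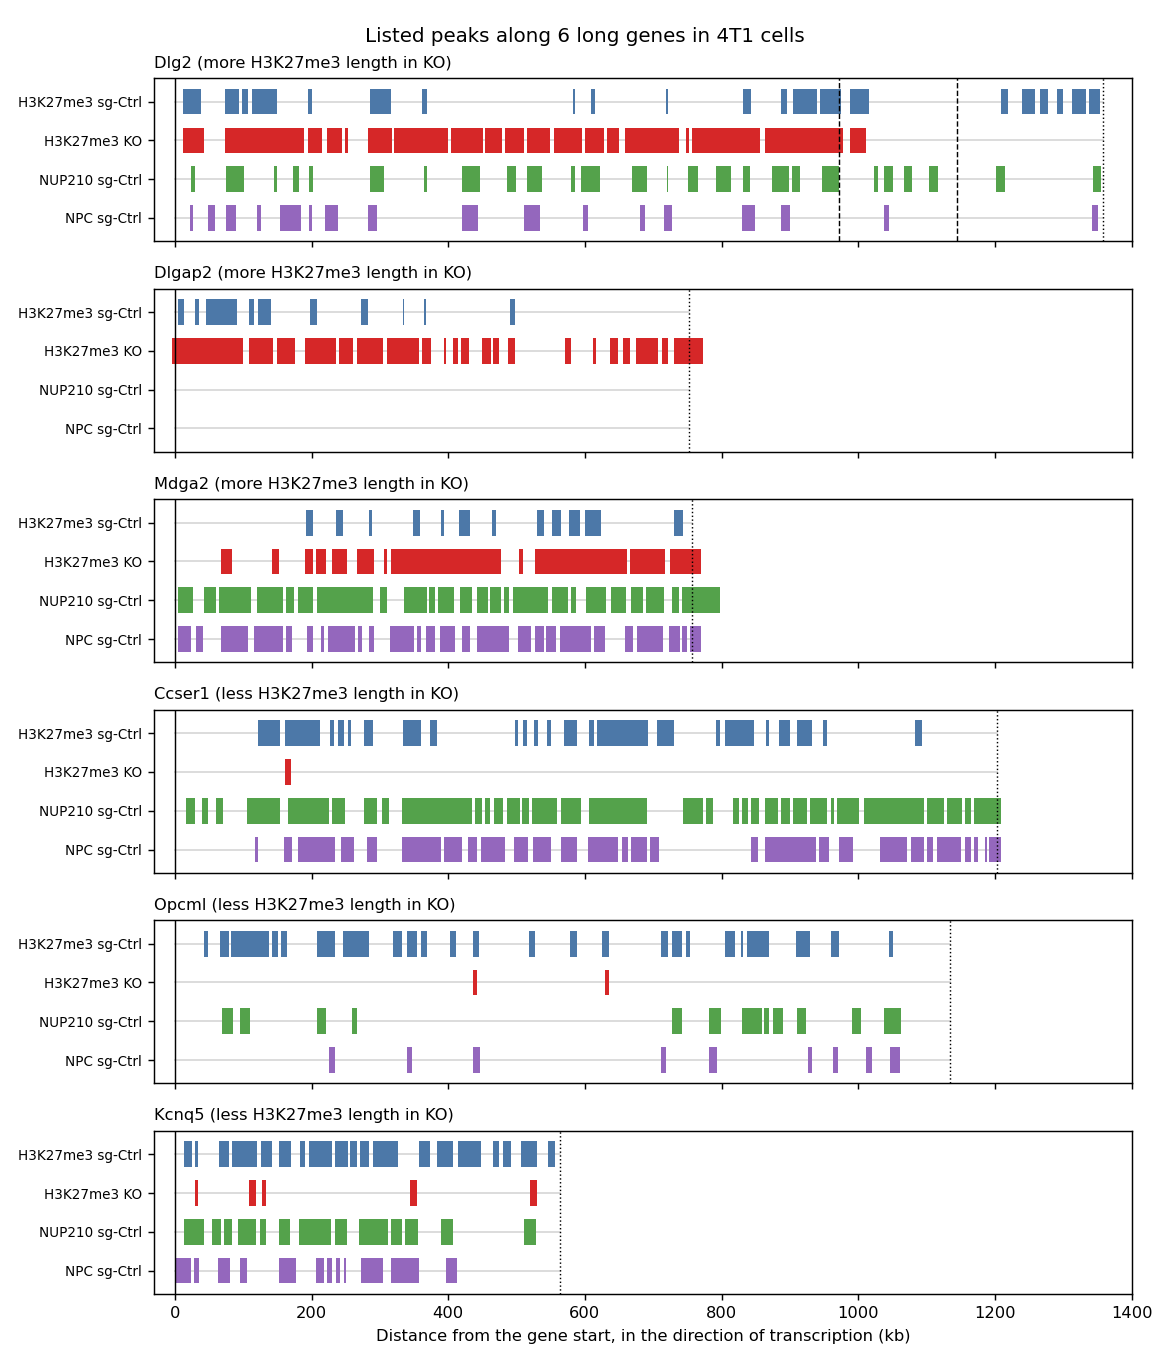
Each panel shows a gene from its start (solid line, 0 kb) to its end (dotted line), with distance in kb on the horizontal axis and a row for each peak list. The blocks are listed peaks and the dashed lines in the Dlg2 panel are its inner starts at 972 and 1144 kb. Red KO blocks fill most of Dlg2 up to 1011 kb, of Dlgap2 and of Mdga2, and are few in Ccser1, Opcml and Kcnq5, and Dlgap2 has no NUP210 or NPC block.

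The peaks were also matched one by one, with any shared base counted as a match. In Ccser1, Opcml and Kcnq5, 22 of 23, 22 of 24 and 15 of 19 sg-Ctrl peaks met no KO peak, 59 of 66 in all. Among those with a fold of at least 2 it was 28 of 31. Over all genes 18.5% of sg-Ctrl peaks met none, and 16.1% of those with a fold of at least 2. In Dlgap2 and Mdga2 every sg-Ctrl peak met a KO peak, and in Dlg2 all but the 6 at the far end did. Of the 52 KO peaks of these 3 genes, 28 met no sg-Ctrl peak, against 24.5% of KO peaks over all genes. These counts follow from the choice of the members and are given to show the form of the change.

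Reads in peaks moved mainly with length. Scaled reads went from 9843 to 27968 in Dlg2, from 3893 to 17193 in Dlgap2 and from 3290 to 20117 in Mdga2, log2 ratios of 1.51, 2.14 and 2.61. Per kb of peak they went from 28.0 to 33.1, from 32.4 to 34.1 and from 23.8 to 40.3. By this scaling the density was higher in KO in Dlg2 and most so in Mdga2. In Dlgap2 it was nearly equal, with a log2 ratio of 0.07, and its direction depends on the scaling. When reads of peaks that overlapped between the lists were set equal in total, its log2 ratio of reads went from 2.14 to 2.02. In Ccser1, Opcml and Kcnq5 scaled reads went from 12495 to 145, from 11481 to 328 and from 10931 to 889, log2 ratios of -6.43, -5.13 and -3.62, which cover the reads of listed peaks alone. The density of the peaks left went from 30.9 to 18.1, from 32.1 to 27.4 and from 31.1 to 20.7 scaled reads per kb.

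The median fold over IgG was 2.16 and 2.27 in sg-Ctrl and KO for Dlg2, 2.20 and 2.99 for Dlgap2 and 1.31 and 1.60 for Mdga2. It was 1.42 and 1.39 for Ccser1, 2.42 and 2.03 for Opcml and 1.85 and 1.11 for Kcnq5. A 1 kb Dlgap2 peak in sg-Ctrl had 52 reads and no IgG reads, which gives its fold of 246 no meaning as a size.

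**Figure D3:**
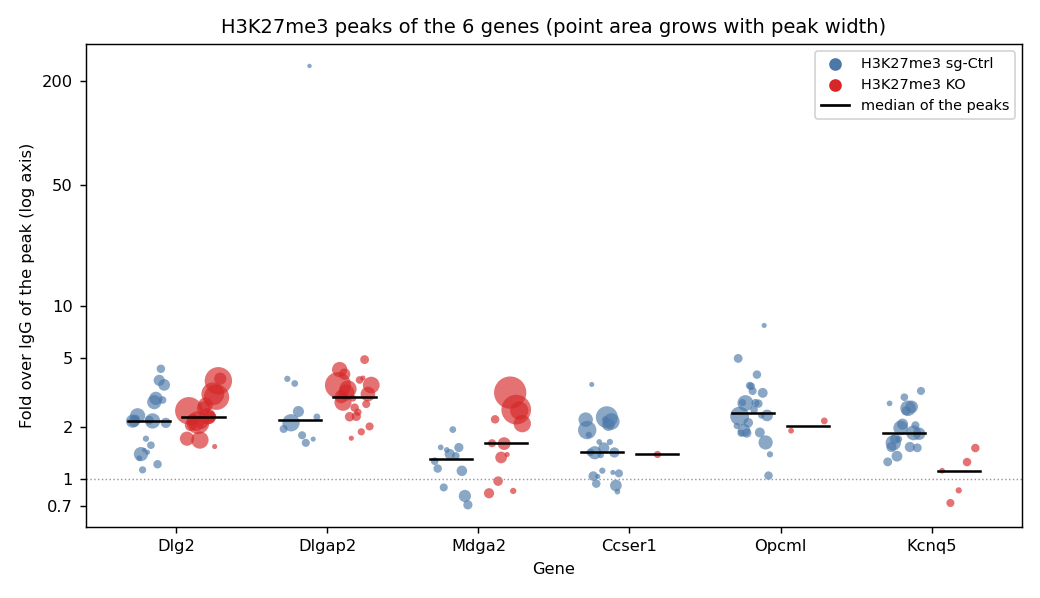
The vertical log axis gives the fold over IgG of each H3K27me3 peak of the 6 genes, in sg-Ctrl (blue) and KO (red), with point area growing with peak width and black lines at the medians. Wide red points mark Dlg2, Dlgap2 and Mdga2, while Ccser1, Opcml and Kcnq5 keep 1, 2 and 5 red points, and the lone point at the top is the 1 kb Dlgap2 peak without IgG reads.

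NUP210 peaks in sg-Ctrl differed widely between the members and did not follow the direction of their H3K27me3. Mdga2 and Ccser1, which moved in opposite directions, were both mostly covered, over 76.5% with 24 peaks and over 71.8% with 33 peaks. Kcnq5 had 49.7% with 13 peaks, Dlg2 27.4% with 26 peaks and Opcml 16.2% with 12 peaks. Dlgap2 was among the 13 long genes without a NUP210 peak.

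Over the 183 long genes the median covered share was 29.5% with quartiles of 6.99% and 57.4%, and 92.9% had a NUP210 peak. A NUP210 or NPC peak is itself enough to be among the 183, and long genes without any listed peak are not counted. The shares with such peaks are therefore higher than over all long genes. Counted from the highest share, Mdga2 was the 14th, Ccser1 the 27th, Kcnq5 the 55th, Dlg2 the 98th and Opcml the 113th. The members therefore spread over the range of long genes.

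NPC peaks gave the same order. They covered 66.2% of Mdga2, 53.5% of Ccser1, 35.0% of Kcnq5, 16.6% of Dlg2, 7.41% of Opcml and none of Dlgap2, against a median of 18.4% over long genes, of which 88.5% had an NPC peak. Of the NUP210 length, NPC peaks overlay 71.3% in Mdga2, 65.5% in Ccser1, 56.8% in Kcnq5, 37.1% in Dlg2 and 14.7% in Opcml. Each of these shares was above the share of the whole gene under NPC peaks, and they had the same order. In Opcml, 27 kb lay under both. NPC peaks covered only 84 kb there against 184 kb for NUP210, which limits how large the overlay could be.

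**Figure D4:**
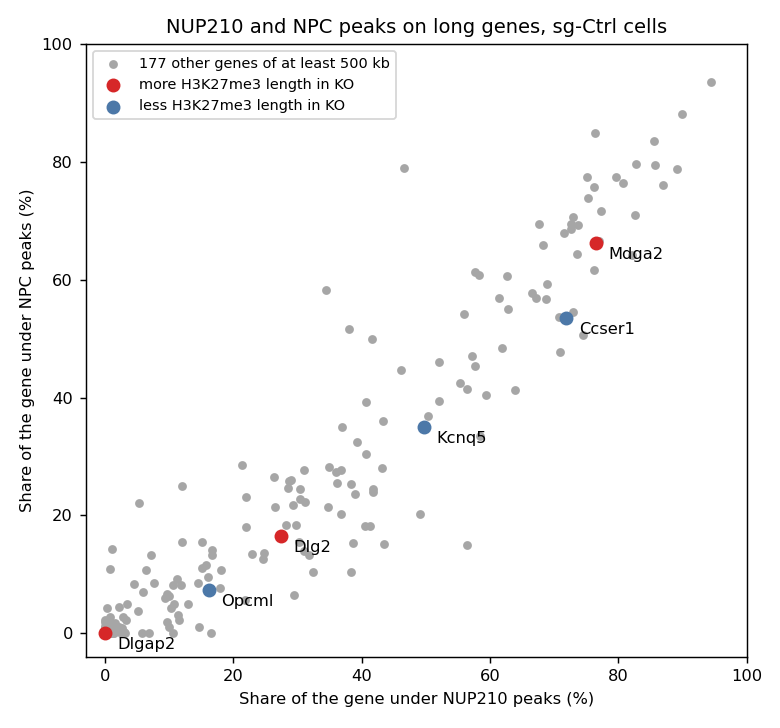
Each point is a gene of at least 500 kb, with the share of its length under NUP210 peaks on the horizontal axis and under NPC peaks on the vertical axis, both in percent in sg-Ctrl cells. The 6 members are colored by the direction of their H3K27me3 and lie between Dlgap2 at 0 for both and Mdga2 at 76.5% and 66.2%.

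The NUP210 signal over these genes was weak. The median fold over IgG was 1.22 to 1.29 in the 5 genes with peaks, and 1 of their peaks, in Dlg2, reached 2-fold. In Ccser1, 9 of 33 NUP210 peaks and 18 of 28 NPC peaks had an FDR above 0.05, and in Mdga2 it was 1 of 24 and 14 of 26. IgG reads under the sg-Ctrl H3K27me3 peaks varied alongside, from 12.7 per kb in Dlg2, 13.7 in Opcml and 14.8 in Dlgap2 to 16.2 in Kcnq5, 18.4 in Ccser1 and 21.2 in Mdga2. Across 144 long genes this IgG density had r = 0.62 and rho = 0.81 with the share under NUP210 peaks. The points come from the same libraries, with an IgG library of its own as control for NUP210, and the part of IgG in the NUP210 shares was not tested.

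In the 5 genes with NUP210 peaks, these covered more of the sg-Ctrl H3K27me3 peaks than of the length outside H3K27me3 in both lists. The same held in 88 of 97 other long genes (90.7%) with at least 50 kb of both. The member shares were 41.3% and 13.97% in Dlg2, 88.4% and 68.9% in Mdga2, 82.9% and 66.2% in Ccser1, 30.4% and 9.67% in Opcml and 61.0% and 27.3% in Kcnq5. The stretches that changed were then set against the gene. In Ccser1, 83.6% of the 396 kb that vanished lay under NUP210 peaks, against 71.8% of the gene. In Opcml it was 31.5% of 346 kb against 16.2%, and in Kcnq5 57.7% of 319 kb against 49.7%. In each of the 3 genes the vanished length was thus richer in NUP210 than the gene as a whole, as it was in 23 of 32 other long genes (71.9%) with at least 50 kb vanished. In these 3 genes it was most of the sg-Ctrl peak length, so the comparison largely repeats the one for sg-Ctrl peaks. Those peaks had 82.9% under NUP210 in Ccser1, 30.4% in Opcml and 61.0% in Kcnq5, and the vanished length was close to these shares.

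In Dlg2 and Mdga2, the length kept was richer in NUP210 than the length that was new, as it was in 49 of 60 other long genes (81.7%) with at least 50 kb of both. The kept length is part of the sg-Ctrl peaks, all 138 kb of them in Mdga2 and 260 of 351 kb in Dlg2. New length lies outside those peaks, so this comparison largely repeats the one for sg-Ctrl peaks. In Dlg2, 48.8% of the 260 kb under H3K27me3 in both lists lay under NUP210 peaks, 28.7% of the 585 kb that was new and 19.8% of the 91 kb that vanished. In Mdga2 it was 88.4% of the 138 kb kept and 77.8% of the 347 kb new, close to the 76.5% of the gene. Dlgap2 gained 358 kb with none of it under NUP210 or NPC peaks. In 32 of 67 other long genes (47.8%) with at least 50 kb new, the new length was richer in NUP210 than the gene.

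**Figure D5:**
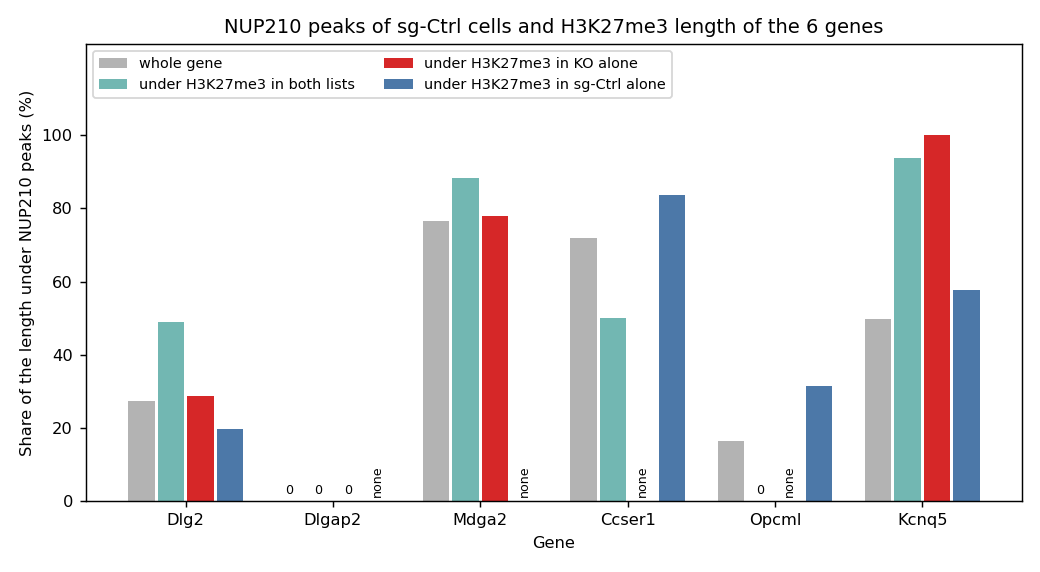
The bars give the share of length under NUP210 peaks of sg-Ctrl cells, in percent, for the whole gene and for stretches under H3K27me3 in both lists (teal), only in KO (red) or only in sg-Ctrl (blue), where "none" marks a gene without such a stretch. The blue bars of Ccser1, Opcml and Kcnq5, at 83.6%, 31.5% and 57.7%, stand above their gray bars, and the bars of Kcnq5 for both lists and KO alone rest on 32 and 11 kb.

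None of the 6 genes had an H3K4me3 peak within 4 kb of a start in sg-Ctrl or KO, and no listed H3K4me3 peak lay inside any of them. The H3K4me3 lists hold only peaks within 4 kb of a start, so a peak elsewhere in these genes would not be listed. Of the 183 long genes, 76.5% likewise had none in either list, and of 10071 genes in the gene body lists 58.2%. The gains and losses of H3K27me3 therefore took place in genes without a listed H3K4me3 start in both conditions. No H3K4me3 ratio could be formed for them. Among 12197 genes with a start peak in both lists, 9.66% had at most 0.5 of the scaled reads per kb in KO and the median log2 ratio was -0.50.

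The listed H3K4me3 peak nearest to a member start was 4.68 kb before Dlgap2 in sg-Ctrl and belonged to the neighbor Erich1. For the other 5 genes the nearest was 613 kb (Dlg2) to 1970 kb (Ccser1) away, a distance to the start peak of another gene. The Erich1 peak had 1371 reads (1299 to 1446) over 2.6 kb in sg-Ctrl and 2165 (2075 to 2258) over 4.0 kb in KO, with folds of 23.5 and 24.7. In scaled reads per kb it had 497 and 402. The wide KO peak of H3K27me3 over the Dlgap2 start reached it and overlapped the KO H3K4me3 peak by 0.4 kb, whereas in sg-Ctrl the nearest H3K27me3 peak was 8.8 kb away. That overlap is shorter than the 1000 bp window of the H3K27me3 peaks, so it does not place both marks on the same bases. The part of the deeper KO library in the position of this edge was not tested.

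Around the members, H3K27me3 on listed genes within 1 Mb moved with the member on some sides and against it on others. Beyond the end of Kcnq5 it went from 214 to 295 kb and before its start from 287 to 335 kb, so both sides had more in KO while Kcnq5 had less. Before Opcml it went from 94.7 to 175 kb and beyond it, in its relative Ntm, from 36 to 31 kb. Ccser1 had less before its start, 77 and 19 kb, where Mmrn1, which encodes multimerin 1, went from 28.4 to 7 kb. The side beyond its end is not reported here.

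Before Dlgap2 the length went from 81 to 177 kb and beyond it from 0 to 21.3 kb, in the same direction as the gene. Dlg2 had 68 and 37 kb before its start and none beyond its end, and Mdga2 had none before its start and 14.1 kb in KO beyond its end. On the rest of each chromosome's listed genes, KO had more: 46.2% on chromosome 7 (Dlg2), 64.8% on 8 (Dlgap2), 28.9% on 12 (Mdga2), 9.13% on 6 (Ccser1), 36.4% on 9 (Opcml) and 26.2% on 1 (Kcnq5). The losses of Ccser1, Opcml and Kcnq5 thus ran against the rest of their chromosomes.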

How the data were processed

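ChIP-seq peak lists of 6 libraries were used. Per their methods, the authors ran SICER at default settings, with a window of 200 bp for H3K4me3 and 1000 bp for H3K27me3 and NUP210. NPC peak widths are likewise multiples of 1000 bp. Per the labels, the controls were 1 rabbit IgG library for both histone marks, another for NUP210 and a mouse IgG library for NPC. Each deposited peak carries its ChIP and IgG read counts, not normalized, the p-value, the FDR and the fold over IgG, which is a ratio that the authors' caller scaled by library size. The submitters' processing notes name mm9, mm10 and NCBIM37, and Bowtie2, STAR, Picard and Trimmomatic, without saying which served these lists. RNA-seq (4 samples) was not analysed here, and the 3 IgG samples entered only through the IgG reads of the lists.

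Repeated peaks were collapsed and cut to the gene span. Library ratios to IgG were recovered from reads and folds (H3K27me3: sg-Ctrl 0.847, KO 2.68), and total depth is otherwise unknown. Read intervals are exact 95% Poisson intervals. Symbols without a single span were left out, which left 10071 genes. Of 9348 genes matched by name, 88.3% began or ended no more than 50 bp from GRCm38.p6. Exons and introns were not assigned, since the genome used here was of another build.

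The members and gene lists were chosen with earlier results of these data known. The genes named are the 6 members, the next 2 in each direction, the listed relatives, listed neighbors within 1 Mb and, for each member, the 2 most alike long genes. Of the neighbors, those named were chosen after their values were seen. Some relatives and neighbors are not reported here. The steps were tested on simulated data. Scripts used pandas 2.3.3, scipy 1.17.1, numpy 2.4.6 and, for plots, matplotlib 3.10.9 under Python 3.11.15.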

Additional observations from a re-analysis of the deposited data

How the results depend on the processing

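The direction of all 6 changes of H3K27me3 held in every alternative that could be computed. Of 157 alternative values over 34 results, 115 stayed within 1.5 times, 42 moved and none reversed. The shares under NUP210 or NPC peaks among these values cannot be negative, so they could not reverse. With folds of at least 2, no log2 ratio of reads could be formed for Mdga2, Ccser1 and Kcnq5, which lacked such peaks in sg-Ctrl or KO. When a fold over IgG of at least 2 was required of H3K27me3 peaks, the summed loss of Ccser1, Opcml and Kcnq5 went from -1050 to -552 kb (Ccser1 -183, Kcnq5 -127), while the summed gain of 1199 kb stayed within 1.5 times under every alternative. The median share of the 6 genes under NUP210 peaks, 38.5%, was 1.24% with folds of at least 1.5 and 0 with folds of at least 2. That under NPC peaks, 25.8%, was 12.2% at an FDR of at most 0.05, 9.55% at 0.01, 0.0832% with folds of at least 1.5 and 0 with folds of at least 2. By construction these alternatives count fewer peaks. A requirement chosen after seeing the data was that KO peaks have at least the 5th percentile of sg-Ctrl peak density (21.8 scaled reads per kb). Every gain kept its direction under it. The losses could not reverse, since it only removes KO length. The H3K4me3 alternatives were not run, since 0 of the members had a start peak. No paired analysis was possible because each condition had 1 library and no test was made. Depth behind stretches without a peak is unknown, the KO library was 3.16 times as deep, and the part of depth in the gains was not tested.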

Other observations

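A list of 24 family members and partners was read beside the 6 genes. Of these, 15 were in the gene body lists and 12 had H3K27me3, with 7 longer and 5 shorter in KO and a median difference of 6 kb. At least 2-fold more was found in 5 and at least 2-fold less in 2, against 23.3% and 17.6% of genes of any length with H3K27me3. The IgLON gene Lsamp, a relative of Opcml, went from 113 to 286 kb, and Ntm, beside Opcml, from 36 to 31 kb, while Negr1 had none in either list. Among the potassium channels related to Kcnq5, Kcnq3 had 258 and 265 kb and Kcnq1 65 and 47 kb. The scaffold gene Dlgap1, a relative of Dlgap2, had 181 and 194 kb. Nrxn3, a presynaptic partner of the neuroligins, went from 0 to 88.9 kb, and the neuroligin gene Nlgn1 from 104 to 86 kb. H3K4me3 was listed at a start of 9 of the 24 in sg-Ctrl and 11 in KO. Among the 9 with a start peak in both lists, the log2 ratio was lowest for Dlg4 (-1.84) and above 0 for Mdga1 alone.

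Of 40 other long genes of the nervous system, 38 were in the gene body lists and 35 had H3K27me3, of which 22 had more and 13 less length in KO. At least 2-fold more was found in 9 and at least 2-fold less in 6, with a median difference of 6 kb. The shares over long genes with H3K27me3 were 26.3% and 10.9%. All 38 had a NUP210 peak, as did 92.9% of long genes, with a median covered share of 49.7%. H3K4me3 was listed for 4 of the 40 in sg-Ctrl and 5 in KO.

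The long genes most alike each member, by the Euclidean distance over the shares covered by H3K27me3 in sg-Ctrl, H3K27me3 in KO, NUP210 and NPC, were Mctp1 for Dlg2 (14.4 percentage points), Gpr98 for Dlgap2 (13.2), Dgkb for Mdga2 (15.1), Celf2 for Ccser1 (20.1), Erc2 for Opcml (19.2) and Magi2 for Kcnq5 (27.7). The second nearest were Fam155a, 1700112E06Rik, 1700007B14Rik, Kcnip4, Lingo2 and Thsd7b, in that order. Dgkb went from 22.8% to 56.4% under H3K27me3 with 73.0% under NUP210, and Celf2 from 22.3% to 3.18% with 57.6%. The 2 H3K27me3 shares had a part in the choice of the members, so this likeness is a description.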
